A study of Mus musculus with 10 samples.

Results

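The genes described here encode the 2 complexes built on the kinase mTOR, the sensors and switches that control them, and the proteins they act on. They form a set of 52 named genes, each represented by its brightest probe set among those annotated with exactly 1 gene symbol. Of these, 50 were measured, out of 22180 genes in all: 11 genes of the complexes and their assembly, 20 of nutrient sensing at the lysosome, 14 of the arm that runs from phosphoinositide 3-kinase to the TSC complex and Rheb, and 5 of 7 effectors. Pdcd4, a translation repressor degraded downstream of S6 kinase, was left out because its probe sets carry several gene symbols, and Rps6kb1, the gene of S6 kinase 1, was not analysed here.

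Transcript levels were measured on 10 Affymetrix arrays of bone marrow plasma cells from B6.BLIMP1 +/GFP mice, 5 of them untreated and 5 given rapamycin, with a separate mouse for each array. All mice of both groups carried GFP at 1 Blimp1 allele, and the cells had been sorted for the absence of B220 and the presence of Blimp1. The labels used here give no dose, duration, age or sex. The sorted cells were bulk samples, in which fewer cells of a type and less RNA per cell cannot be told apart.

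mTOR is a protein kinase that works in a pair of complexes, one defined by raptor and sensitive to rapamycin, the other defined by rictor. The first is recruited to the lysosome by Rag GTPases when amino acids are present and is switched on there by the GTPase Rheb, which the TSC complex restrains until growth factor signals lift the restraint. Active mTOR complex 1 phosphorylates S6 kinases and the 4E-binding proteins and so raises protein synthesis, a heavy load in cells that secrete antibody. Rapamycin acts on the kinase as a drug bound to the protein FKBP12, and these arrays measured transcripts only, not phosphorylation or complex assembly.

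Array quality and identity bear on every value below. The medians of the arrays ran from 4.92 to 4.99 in log2 units. All 8 plasma cell markers were measured, with a mean level per array of 11.26 to 11.38 in untreated and 11.34 to 11.45 in rapamycin samples. The 9 neutrophil markers had mean levels of 6.63 to 7.37 and 7.06 to 7.59, and at an unadjusted p under 0.05 in limma 4 of them were higher with rapamycin and 0 were lower. At the same unadjusted threshold 2 of the 8 plasma cell markers were higher and 0 lower, namely Prdm1 (0.41), which encodes BLIMP1, and Mzb1 (0.11), and the groups lay wholly apart for both. Of the 7 measured B cell markers 1 was higher, Ebf1 (0.36), and 2 were lower, Cd22 (-0.44) and Pax5 (-0.18), with overlapping groups. Over all genes 6.13% were higher and 3.26% lower at this threshold, and 2.06% had groups wholly apart. At an adjusted p under 0.05 in limma, 0 of the plasma cell and 0 of the neutrophil markers passed. Of the 6 eosinophil markers 1, Prg2 (0.42), passed the test and was higher with rapamycin. Of the others, Epx differed by -0.13, and Prg3, Ear6, Il5ra and Siglecf by 0.27, 0.02, 0.16 and 0.07. Prg2 had a mean level of 12.72, whereas Epx and Ear6 lay below the median of every array. Of the measured markers of B cells, monocytes and macrophages, T cells and erythroid cells 0 passed. The part of such cells in the differences below was not tested. Xist was at most 4.00 on any untreated array and at least 8.87 on any rapamycin array, and the Y-linked Eif2s3y, Kdm5d and Uty ran the other way, so that rapamycin and a difference in sex cannot be told apart here. Rapamycin replicate 4 stood apart from the other arrays on the first principal component, at 22.29 against 4.17 to 8.85 on the other rapamycin arrays and -15.4 to -1.16 on untreated ones. Without it the sign of the difference turned for 5 of the 50 genes, Rictor, Akt1s1, Tti1, Pik3cd and Tsc1, and the difference moved by less than 0.05 for 32 of the 50.

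The comparison asked whether plasma cells of rapamycin-treated mice carried other levels of the transcripts that build and steer the drug's own target pathway. Among the 50 genes, 0 were higher and 0 lower in limma at a threshold of 0.05 on the p adjusted by Benjamini-Hochberg, where 0.153% of all genes were called, 0.126% as higher and 0.0271% as lower. The smallest adjusted p was 0.404. At an unadjusted p under 0.05, 2 genes were higher and 0 lower, which is 4% of the 50 against 9.39% of all genes (6.13% higher and 3.26% lower). These 2 were Rhebl1, a close relative of Rheb, and Rps6kb2, the gene of S6 kinase 2. The two-sided exact permutation test over arrays gave 0 of 50 genes a p under 0.05, against 8.52% of all genes. For 0 of the 50 did the 5 values of a group lie wholly apart from those of the other, against 2.06% of all genes.

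Log2 differences (rapamycin minus untreated) of the 50 genes ran from -0.18 for Flcn to 0.29 for Tbc1d7, with a median of 0.02, against a median of 0.01 over all genes. They were above 0 for 26 genes and below 0 for 24. The share above 0 was 52%, beside 53.1% of all genes. The median size of the difference, whatever its sign, was 0.08 both for the 50 genes and for all genes. In the cumulative plot the 50 genes follow the curve of all genes over most of its length.

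**Figure D1:**
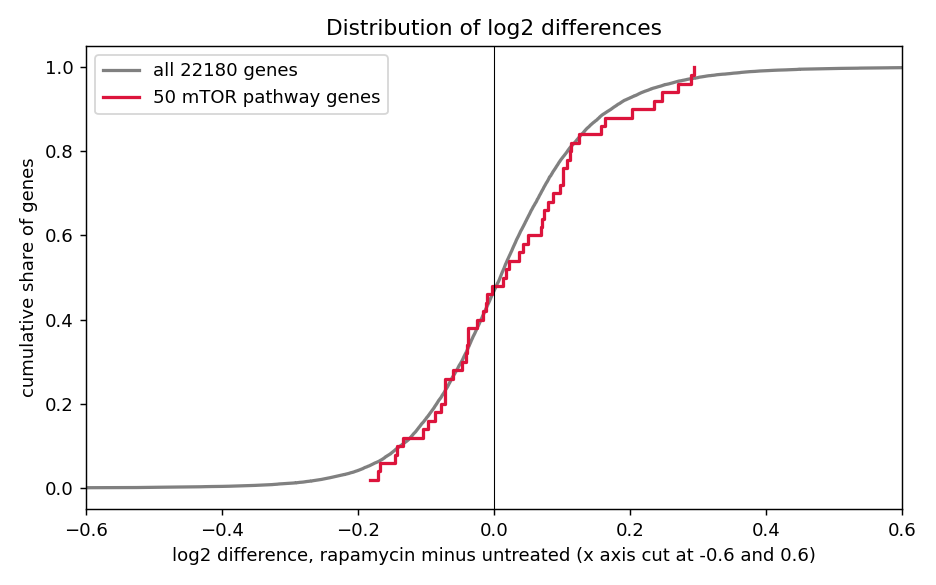
Cumulative share of genes (vertical axis) against the log2 difference, rapamycin minus untreated (horizontal axis, shown from -0.6 to 0.6), for all 22180 genes in grey and the 50 mTOR pathway genes in red. Both curves cross 0 near the middle, with 52% of the 50 genes and 53.1% of all genes above 0.

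A missed threshold does not show equal levels, so the intervals were examined. The 95% interval of the difference, unadjusted for the number of genes, lay within a 1.5-fold change in either direction (0.585 on the log2 scale) for 49 of the 50 genes, or 98%, beside 96.8% of all genes. Tbc1d7 was the exception, with an interval of -0.01 to 0.59. Intervals lay within a 1.25-fold change for 28 of the 50 (56%, beside 64.3% of all genes). The ends of the interval lay a median of 0.22 from the difference itself. Changes of 1.5-fold or more were thus outside the intervals of these genes other than Tbc1d7, whereas the intervals of 22 of the 50 extended beyond a 1.25-fold change.

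**Figure D2:**
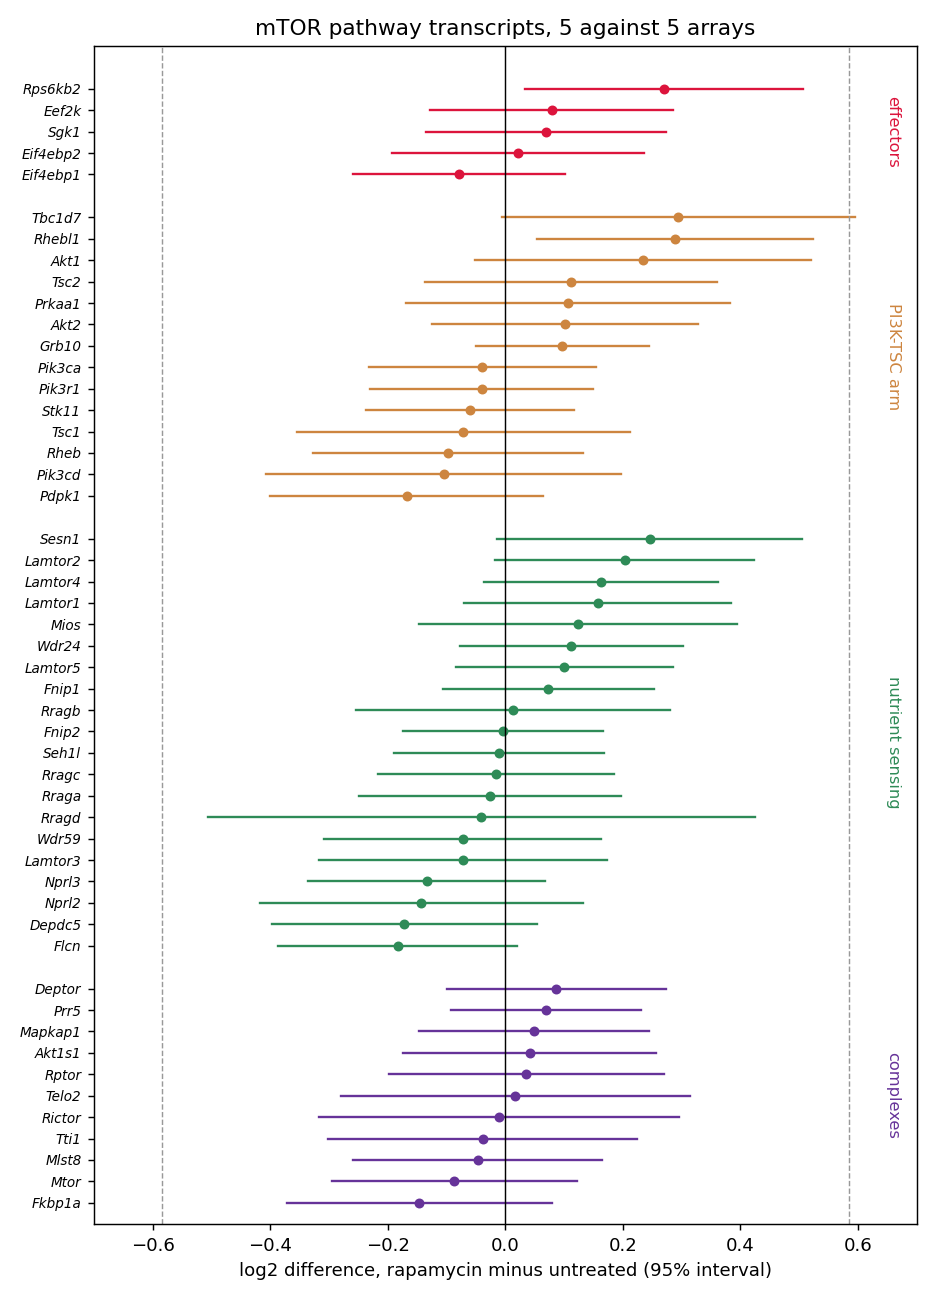
Log2 difference, rapamycin minus untreated (horizontal axis), with its unadjusted 95% interval from limma (bars) for each of the 50 genes, ordered by size within 4 role groups. Dashed lines mark a 1.5-fold change (0.585), which is crossed by the interval of Tbc1d7 alone; intervals of Rhebl1 and Rps6kb2 exclude 0 before adjustment.

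The 11 genes of the complexes had log2 differences between -0.15 and 0.09, with a median of 0.02 and a median size, whatever the sign, of 0.05. None of them reached an unadjusted p under 0.05. Mtor, the kinase itself, was at 7.83, 7.91, 7.98, 7.92 and 8.12 on untreated arrays 1 to 5 and at 8.0, 7.92, 7.91, 7.54 and 7.96 on rapamycin arrays 1 to 5. The groups overlapped, and rapamycin array 4 was the only one below the untreated range. The log2 difference was -0.09 (SE 0.10, adjusted p = 0.861 in limma), and without that array it was -0.01.

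Rptor encodes raptor, the scaffold that brings substrates to complex 1. It was at 7.96, 8.12, 8.24, 8.13 and 8.40 in untreated and at 8.34, 8.29, 8.28, 7.82 and 8.30 in rapamycin samples. Rapamycin arrays other than 4 lay close together inside the untreated range, and the log2 difference was 0.04 (0.13 without array 4). Akt1s1, which encodes PRAS40, an inhibitory partner of raptor, differed by 0.04 (-0.01 without array 4).

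Rictor, the scaffold of complex 2, was at 6.75, 6.90, 7.10, 7.02 and 7.00 in untreated and at 7.21, 7.29, 6.93, 6.36 and 6.94 in rapamycin samples. Rapamycin samples spread more widely (SD 0.37 against 0.13, n = 5 each), with arrays above and below the untreated range, and the difference was -0.01 (0.14 without array 4). Of the other subunits of complex 2, Mapkap1, which encodes SIN1, differed by 0.05 and Prr5, which encodes the rictor partner protor, by 0.07. None of these genes passed the test.

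Fkbp1a encodes FKBP12, the protein that rapamycin binds. It was at 6.96, 6.95, 6.77, 6.97 and 7.29 in untreated and at 6.89, 6.95, 6.79, 6.98 and 6.61 in rapamycin samples. All 5 rapamycin values lay below the untreated mean of 6.99 ± 0.19 (SD, n = 5), yet only array 5 fell outside the untreated range. The log2 difference was -0.15 with a 95% interval of -0.37 to 0.08 (adjusted p = 0.745 in limma). It was the largest difference in size among the genes of the complexes.

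Among the remaining components, Mlst8, a subunit shared by both complexes, differed by -0.05. Its value was 7.44 on untreated array 4, 6.95 to 7.03 on the other untreated arrays and 6.99 to 7.13 on rapamycin arrays. Deptor, an inhibitor of mTOR that is abundant in tumours of plasma cells, had a difference of 0.09 on the brighter and of -0.15 on the dimmer of its probe sets, with adjusted p of 0.842 and 0.709 in limma with every probe set tested. Telo2 and Tti1, which help to assemble mTOR and related kinases, differed by 0.02 and -0.04 (0.04 and 0.03 without array 4).

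**Figure D3:**
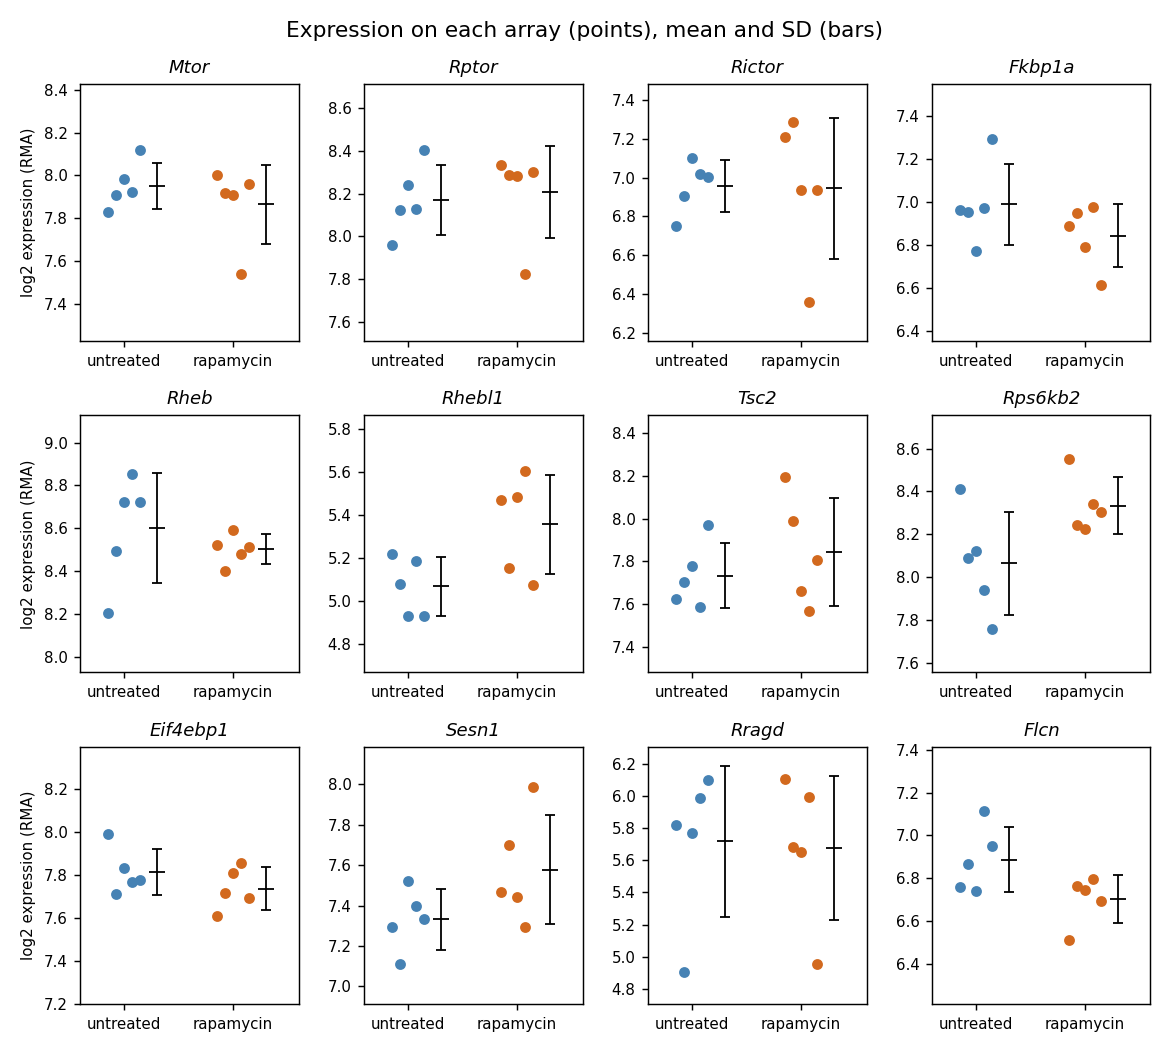
Log2 expression after RMA (vertical axis, a scale of its own in each panel) on each of 5 untreated (blue) and 5 rapamycin (orange) arrays in replicate order for 12 genes, with the group mean and SD as black bars. The groups overlap in every panel, and rapamycin replicate 4 is the lowest point of the 10 for Mtor (7.54), Rptor (7.82) and Rictor (6.36).

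Nutrient sensing was covered by 20 genes, of which 0 passed the test in limma and 0 reached an unadjusted p under 0.05. Their median log2 difference was -0.01, with 9 above 0 and 11 below. The Rag GTPases, which form heterodimers that bind raptor when amino acids are plentiful, had differences of -0.03 for Rraga, 0.01 for Rragb, -0.02 for Rragc and -0.04 for Rragd (-0.12 without rapamycin array 4). Rragb is X-linked and, like Fnip2 and Grb10, had a mean below every array's median, where small changes are harder to see.

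Rragd, a target of the lysosomal transcription factors TFEB and TFE3 in other cell types, was the most variable of the 50 genes, with a pooled SD within groups of 0.46 beside a median of 0.17 over the 50 and 0.15 over all genes. It was at 5.82, 4.91, 5.77, 5.99 and 6.10 in untreated and at 6.10, 5.68, 5.65, 5.99 and 4.95 in rapamycin samples. In each group 1 mouse lay below the other 4, namely untreated replicate 2 (4.91, the others from 5.77) and rapamycin replicate 5 (4.95, the others from 5.65). The 95% interval of its difference ran from -0.51 to 0.42.

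Ragulator, made of LAMTOR proteins, anchors the Rag GTPases to the lysosome. Of its 5 genes 4 had differences above 0, at 0.20 for Lamtor2, 0.16 for Lamtor4, 0.16 for Lamtor1 and 0.10 for Lamtor5, while Lamtor3 differed by -0.07, or by 0.08 on its dimmer probe set. Lamtor2 was at 7.45, 7.60, 7.91, 7.86 and 7.87 in untreated and at 7.87, 7.92, 7.97, 8.14 and 7.82 in rapamycin samples, so that 3 rapamycin values exceeded the untreated range. Its adjusted p was 0.581 in limma. Averaged over the 5 genes and set against the untreated mean, Ragulator stood between -0.05 and 0.07 on untreated arrays and at -0.02, -0.01, 0.20, 0.33 and 0.05 on rapamycin arrays 1 to 5. Arrays 3 and 4 were the high ones, and the median difference of the 5 genes was 0.16 with all arrays and 0.08 without rapamycin replicate 4.

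GATOR1 is the complex that turns RagA and RagB off when amino acids run short. Its 3 genes all had differences below 0, at -0.17 for Depdc5, -0.14 for Nprl2 and -0.13 for Nprl3, with adjusted p from 0.675 to 0.814 in limma. Depdc5 was at 7.41, 7.15, 7.29, 7.32 and 7.11 in untreated and at 7.32, 7.25, 7.00, 6.80 and 7.06 in rapamycin samples, and 3 rapamycin values were below the untreated range. The mean of the 3 genes, set against the untreated mean, was between -0.09 and 0.07 on untreated arrays and at -0.04, -0.13, -0.16, -0.44 and 0.02 on rapamycin arrays 1 to 5. The lowest was again array 4, and without it the differences were -0.10 for Depdc5, -0.04 for Nprl2 and -0.09 for Nprl3, with a median of -0.09 in place of -0.14. GATOR2, which opposes GATOR1, had differences on both sides of 0, at 0.12 for Mios, 0.11 for Wdr24, -0.07 for Wdr59 (-0.01 without array 4) and -0.01 for Seh1l.

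**Figure D4:**
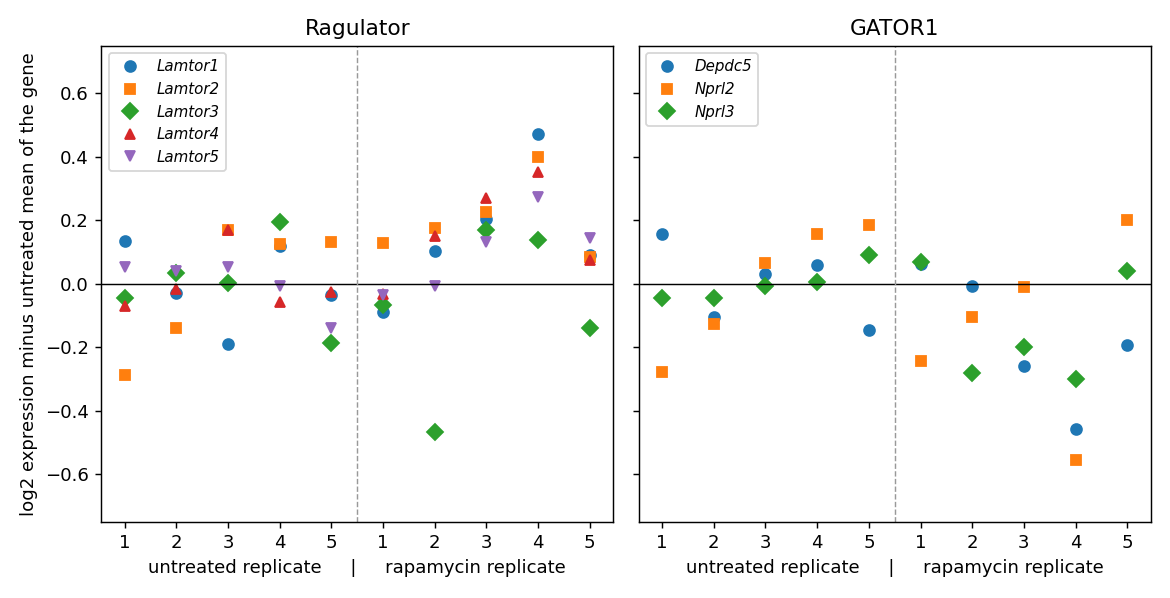
Log2 expression of each gene minus its own untreated mean (vertical axis) by array (horizontal axis, untreated replicates 1 to 5 left of the dashed line and rapamycin replicates 1 to 5 right of it), for the Ragulator genes and the GATOR1 genes. Rapamycin replicate 4 holds the highest mean of the Ragulator genes (0.33) and the lowest of the GATOR1 genes (-0.44).

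Sesn1 encodes sestrin 1, a stress-induced protein that binds GATOR2 and restrains mTOR complex 1. It was at 7.29, 7.11, 7.52, 7.40 and 7.33 in untreated and at 7.47, 7.70, 7.44, 7.29 and 7.99 in rapamycin samples. Rapamycin arrays 2 and 5 exceeded the untreated range and the others lay within it. The log2 difference of 0.25 had a 95% interval of -0.01 to 0.51 (adjusted p = 0.566 in limma). With rapamycin array 4 left out it was 0.32, with an unadjusted p of 0.0188 and an adjusted p of 0.428 in limma.

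Flcn encodes folliculin, which with its FNIP partners acts on RagC and RagD to permit signalling to mTOR complex 1. It was at 6.76, 6.87, 6.74, 7.11 and 6.95 in untreated and at 6.51, 6.77, 6.75, 6.80 and 6.69 in rapamycin samples. All 5 rapamycin values were below the untreated mean of 6.89 ± 0.15 (SD, n = 5), and 2 of them were below the untreated range. The difference of -0.18 was the lowest of the 50 genes and did not pass (adjusted p = 0.589 in limma). Fnip1 and Fnip2 differed by 0.07 and -0.00.

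The arm from phosphoinositide 3-kinase to Rheb held 14 genes, with a median difference of 0.03, 7 above 0 and 7 below. The kinase subunits Pik3ca and Pik3cd, the latter the leukocyte form, differed by -0.04 and -0.10, and the regulatory subunit gene Pik3r1 by -0.04. Without rapamycin array 4 these values were -0.02 for Pik3ca, 0.01 for Pik3cd and 0.00 for Pik3r1. Pdpk1, whose product activates AKT, differed by -0.17, with all 5 rapamycin arrays below the untreated mean. Akt1 and Akt2 differed by 0.23 and 0.10. None of these passed the test, and the smallest adjusted p of the 6 was 0.646 in limma.

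The TSC complex turns Rheb off. Tsc2, its catalytic subunit, was at 7.63, 7.71, 7.78, 7.59 and 7.97 in untreated and at 8.19, 7.99, 7.66, 7.57 and 7.81 in rapamycin samples. Rapamycin arrays 1 and 2 lay above the untreated range and array 4 just below it, and the difference was 0.11 (0.18 without array 4). Tsc1 differed by -0.07 and by 0.06 without array 4. Tbc1d7, which encodes the third subunit, had the highest difference of the 50 genes, 0.29 (SE 0.14, adjusted p = 0.547 in limma), with rapamycin arrays 3 and 5 above the untreated range. Without array 4 the Tbc1d7 difference was 0.37, with an unadjusted p of 0.0184 and an adjusted p of 0.427 in limma.

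Rheb, the direct activator of mTOR complex 1, was at 8.20, 8.49, 8.73, 8.85 and 8.72 in untreated and at 8.52, 8.40, 8.59, 8.48 and 8.51 in rapamycin samples. Every rapamycin value lay within the untreated range and below the untreated mean of 8.60 ± 0.26 (SD, n = 5), and the difference was -0.10. Rhebl1, which encodes a related GTPase that can also stimulate mTOR, was at 5.22, 5.08, 4.93, 5.18 and 4.93 in untreated and at 5.47, 5.15, 5.49, 5.60 and 5.07 in rapamycin samples. Arrays 1, 3 and 4 of the rapamycin group exceeded the untreated range, and arrays 2 and 5 did not. Its difference of 0.29 (SE 0.11) had an unadjusted p of 0.0189 and an adjusted p of 0.404 in limma, the smallest of the 50 genes. Without rapamycin array 4 the difference was 0.23 and the unadjusted p in limma was 0.0564, above 0.05. The exact permutation p, unadjusted and two-sided, was 0.0714.

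Set side by side within each array, the Rheb value minus the Rhebl1 value had a mean difference of -0.39 with rapamycin, and the groups overlapped, with untreated replicates 1 and 2 among the rapamycin arrays. Of 6 pairs of related genes compared in this way, 0 had ratios that parted the groups. The pairs were Rraga and Rragb, Rragc and Rragd, Eif4ebp1 and Eif4ebp2, Akt1 and Akt2, Rheb and Rhebl1, and Fnip1 and Fnip2, and no test was made of them.

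Further genes feed into this arm from energy and insulin signals. Stk11, which encodes the kinase LKB1, differed by -0.06 (-0.02 without array 4), and Prkaa1, a catalytic subunit of its target AMPK, by 0.11. Grb10, an adaptor that dampens insulin receptor signalling, differed by 0.10 at a level below the median of every array.

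The 5 effectors had a median difference of 0.07, which was 0.00 without rapamycin replicate 3, 0.03 without untreated replicate 5 and 0.04 without either untreated replicate 2 or rapamycin replicate 2. Rps6kb2 was at 8.41, 8.09, 8.12, 7.94 and 7.76 in untreated and at 8.55, 8.24, 8.22, 8.34 and 8.31 in rapamycin samples. All 5 rapamycin values were above the untreated mean of 8.06 ± 0.24 (SD, n = 5), while untreated replicate 1 exceeded 4 of them. Its difference of 0.27 (SE 0.11) had an unadjusted p of 0.0281 and an adjusted p of 0.453 in limma, and its exact permutation p was 0.0635, two-sided and unadjusted. That was the smallest exact p of the 50 genes. The unadjusted p in limma was above 0.05 without untreated replicate 4 (0.0661), untreated replicate 5 (0.0888) or rapamycin replicate 1 (0.0803). It was also above 0.05 on all arrays with quantile normalization repeated (0.064).

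Eif4ebp1 encodes 4E-BP1, which blocks cap-dependent translation until mTOR phosphorylates it. It was at 7.99, 7.71, 7.83, 7.77 and 7.77 in untreated and at 7.61, 7.72, 7.81, 7.86 and 7.69 in rapamycin samples. The values overlapped, with a difference of -0.08, and the difference of its relative Eif4ebp2 was 0.02. Eef2k, the kinase that halts elongation and is held in check by S6 kinase, differed by 0.08, and Sgk1, a kinase activated by mTOR complex 2, by 0.07.

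Beyond the 50 genes, 86 others of the pathway were measured. Of these 0 passed the test in limma in either direction, at an unadjusted p under 0.05 there were 2 higher and 4 lower (6.98%, beside 9.39% of all genes), and their median difference was 0.00. Ddit4 encodes REDD1, which restrains mTOR complex 1 through the TSC complex. It was at 5.68, 5.86, 6.15, 5.67 and 6.03 in untreated and at 6.77, 6.11, 6.12, 6.50 and 6.72 in rapamycin samples. Rapamycin arrays 1, 4 and 5 exceeded the untreated range, and arrays 2 and 3 lay within it. Its difference of 0.57 (SE 0.14) was the largest among them and had an adjusted p of 0.147 in limma. It passed in the authors' filtered table, which holds fewer genes, with an adjusted p of 0.0351 in limma. The cause of that change was not tested.

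Atf4, a transcription factor whose translation mTOR complex 1 promotes, was at 11.06, 11.13, 11.19, 11.07 and 11.01 in untreated and at 10.91, 10.82, 10.99, 10.94 and 10.98 in rapamycin samples. It was the only one of these 86 genes whose groups lay wholly apart, which was so for 2.06% of all genes. Its difference of -0.16 (SE 0.06) did not pass (adjusted p = 0.338 in limma). The other genes at an unadjusted p under 0.05 were Pik3r2, a regulatory subunit of phosphoinositide 3-kinase, with 0.24, Irs2, an insulin receptor substrate, with -0.28, the kinase gene Gsk3b with -0.28 and the ubiquitin ligase gene Nedd4 with -0.31. Without rapamycin replicate 4 the differences of Irs2 and Gsk3b were both -0.19.

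TFEB and TFE3, which mTOR complex 1 keeps out of the nucleus, bind promoters at the letters CACGTG, as do MYC and USF proteins. Promoter windows from RefSeq (GRCm38.p6), from 250 bases before to 50 bases after a start site, were matched by symbol for 43 of the 50 genes. CACGTG, the same on both strands, stood in a window of 10 of these 43, beside 8.09% of all 27025 genes with windows. It was found in 15.9% of the 63 windows of these genes, since some have several start sites, and in 7.15% of all 32851 windows. The windows were not matched for base composition, so the shares are a description. Stretches around the site are shown for the genes of lysosomal sensing and of the TSC complex and Rheb, since these link mTOR to the lysosome, with CACGTG in capitals, on the gene's strand. Where a gene had several sites, the one nearest its start site is shown.
Rragb: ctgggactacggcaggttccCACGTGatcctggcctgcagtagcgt
Rragc: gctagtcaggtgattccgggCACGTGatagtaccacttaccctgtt
Lamtor1: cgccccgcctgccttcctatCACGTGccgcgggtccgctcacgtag
Lamtor4: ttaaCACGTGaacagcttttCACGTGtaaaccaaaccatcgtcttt
Fnip1: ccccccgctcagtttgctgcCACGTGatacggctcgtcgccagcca
Tbc1d7: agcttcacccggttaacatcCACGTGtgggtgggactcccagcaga
Rheb: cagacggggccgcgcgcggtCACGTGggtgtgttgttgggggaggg

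These stretches lie at chrX:153139935-153139980 (plus strand) for Rragb, chr4:123917301-123917346 (plus) for Rragc, chr7:101905749-101905794 (plus) for Lamtor1, chr5:138255358-138255403 (plus) for Lamtor4, chr11:54438084-54438129 (plus) for Fnip1, chr13:43171529-43171574 (minus) for Tbc1d7 and chr5:24842432-24842477 (minus) for Rheb. The other genes with the site were Eef2k, Sgk1 and Telo2. Log2 differences of the 10 genes ran from -0.10 for Rheb to 0.29 for Tbc1d7, with a median of 0.07 and 8 of them above 0, beside 53.1% of all genes. The genes whose windows lacked it had a median of -0.03. This contrast was not tested, and differences of all genes with the site were not examined.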

How the data were processed

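Expression was measured on 10 arrays, 5 per group by sample title. The authors deposited log2 values from RMA, as the range and near-equal quartiles also show (the method is named per the submitters' processing notes); quantile normalization within RMA hides a shift common to all transcripts. They were used as deposited. The whole table has 41345 probe sets, 23521 of them with 1 symbol in the platform annotation, and a second, filtered table has 12280. The brightest probe set stood for each of 22180 genes.

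Groups were compared with limma 3.58.1 in R 4.3.3 (lmFit, eBayes with intensity trend, two-sided), adjusted by Benjamini-Hochberg over all genes and called at an adjusted p under 0.05. The fit was tested on simulated data. The number of arrays limits the precision. Each array came from a separate mouse, so p-values set the group difference against the spread between mice within groups, preparation and array included. As rapamycin and a difference in sex cannot be told apart, they do not bear on rapamycin alone. The genes, lists and role groups were chosen with earlier results of these data known. Values on every array are given for genes with an unadjusted p under 0.05 and for a set of key genes; those of Lamtor2, Depdc5 and Flcn were added after their values were seen. Alternatives covered the variance model, a replicate block, array weights, probe sets, filters, normalization, thresholds and each array left out. Figures used matplotlib 3.10.9 in Python 3.11.15.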

Additional observations from a re-analysis of the deposited data

Results flagged for a closer look

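The 5 values of each group were examined by Dixon's test at the 95% level for the 50 genes and 6 other named genes. Of these 112 sets 7 held an array far from its group, a share close to the 1 in 20 or so that chance alone gives. The share over all genes was not examined. Rapamycin replicate 4 was low for Mtor, at 7.54 against 7.91 to 8.0 on the other rapamycin arrays, and for Rptor, at 7.82 against 8.28 to 8.34. Mlst8 was high in untreated replicate 4, at 7.44 against 6.95 to 7.03, and in rapamycin replicate 5, at 7.13 against 6.99 to 7.02. Rragd was low in untreated replicate 2, at 4.91 against 5.77 to 6.10. Lamtor4 was high in untreated replicate 3, at 7.18 against 6.94 to 6.99, and Eef2k in rapamycin replicate 2, at 6.61 against 6.33 to 6.41.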

How the results depend on the processing

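Over 21 alternative fits 0 of the 50 genes passed an adjusted p under 0.05 in limma, and the smallest adjusted p was 0.21, that of Rps6kb2 without untreated replicate 1. At an unadjusted p under 0.05 in limma the fits held 1 to 6 of the genes. Their share ran from 2% to 12%, beside 8.28% to 12.6% of all genes. Rhebl1 was among them in 20 and Rps6kb2 in 17 of the 21 fits, which share most or all arrays. The main fit held 2 higher and 0 lower. The sign of a gene's difference turned in 51 of 1021 alternative values, for 20 genes in all, none of them past the test. In the filtered table, which held 26 of the 50 genes and lacked some effectors, the median of the effectors left was 0.17. That median rests on few genes, Rps6kb2 (0.27) among them. With each array left out, medians ran from -0.04 to 0.04 for the complexes, from -0.03 to 0.04 for nutrient sensing, from -0.01 to 0.07 for the arm to Rheb and from 0.00 to 0.10 for the effectors. Of the other pathway genes, 1 was higher in the filtered table, and at an unadjusted p 2 were higher and 4 lower.

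Over all genes the main fit called 28 higher and 6 lower. With the replicate block it called 14 and 7, and 0 of the 50 genes. Same-numbered arrays did not deviate together (correlations of -0.0719 to 0.0505, and 1 of 5 untreated arrays correlated best with its own number). The labels do not say whether the numbers pair the mice, and these correlations cannot exclude it. Genes above the median level gave 57 higher and 13 lower, and the filtered table gave 71 and 36. Array weights gave 12 lower, repeated quantile normalization 13 lower, and removal of X and Y genes 22 higher and 3 lower. An adjusted p under 0.1 gave 68 and 24, and an unadjusted p under 0.05 gave 1360 and 723. Leaving out each array gave 15 to 30 higher, with 15 both without untreated replicate 3 and without rapamycin replicate 1, and 4 to 9 lower. Fewer genes were tested above the median level, in the filtered table and after removal of X and Y genes. Among those taken out by that removal were Eif2s3y, Kdm5d and Uty, which the main fit called lower, and Xist, which it called higher. Genes taken out could no longer be called, and the cause of the other shifts was not tested.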
